A study of Mus musculus with 2 samples.

Results

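Zinc finger genes with the mouse symbol Zfp encode DNA-binding proteins, and many of them lie side by side in clusters that grew by tandem duplication. Many of the proteins carry a KRAB domain, which recruits the corepressor Trim28 and, through it, the histone methyltransferase Setdb1 and heterochromatin proteins. They are best known for silencing retrotransposons and for guarding imprinted loci. Of 21887 protein-coding genes of the nuclear chromosomes in RefSeq, 394 have the symbol Zfp with a number and an optional final letter. Of these, 226 lie within 100 kb of another such gene, measured as the gap between gene bodies, and they form 52 clusters. The other 168 are solitary. The clusters hold 2 to 23 genes each, and 76 of the 226 genes are on chromosome 7.

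The regions come from CUT&RUN, in which an antibody directs a nuclease to chromatin and the released DNA is sequenced. The nuclei came from a hypothalamic region, the paraventricular nucleus (PVN), of adult mice with genotype WT. The source is labelled as neurons, and the study asked whether the homeodomain factor Otp binds at the promoter of Mc4r. There were 2 libraries, 1 made with an antibody against Otp and 1 made with IgG, the control antibody without a target. No replicate checks any value below, and intervals are 95% exact binomial or Poisson intervals that cover counting error only. The labels give no exact age or sex, and do not say how many animals or how much other tissue went into a library. The Otp list held 11379 regions and the IgG list 291. The numbers of reads are unknown, and the genome background worked out from the deposited values was 0.512 tags for Otp and 0.0873 for IgG. Of genes that mark cell types, 3 of 7 PVN and 3 of 5 neuronal genes had an Otp region within 1 kb of an end. So did 0 of 3 astrocyte, 1 of 3 oligodendrocyte and 0 of 3 microglial genes. Of all protein-coding genes 27.2% did, a value inside the interval of each of these sets, so no set stood apart. A region does not measure the expression of a gene.

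The sequences under the regions show what the clusters look like at their starts. Each line below is a stretch of 101 bases from the RefSeq promoter table (GRCm38.p6, the assembly that mm10 denotes), read 5′ to 3′ on the strand of the gene. Capitals mark the word CCAAT and the homeodomain core TAAT, on either strand. The first 5 lines are from the largest cluster in which every gene had an Otp region within 1 kb of either end. They are all its genes, on chromosome 8 between Zfp868 and Zfp866. They lie at chr8:69625526-69625626 (minus strand), chr8:69654335-69654435 (plus), chr8:69717052-69717152 (minus), chr8:69749998-69750098 (minus) and chr8:69774965-69775065 (minus). The summit is the middle base, except in Zfp869, where it is base 33.
Zfp868: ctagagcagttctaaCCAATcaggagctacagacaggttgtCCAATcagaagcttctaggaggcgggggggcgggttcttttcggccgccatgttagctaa
Zfp964: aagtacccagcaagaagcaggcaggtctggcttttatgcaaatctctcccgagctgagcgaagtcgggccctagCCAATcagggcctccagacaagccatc
Zfp869: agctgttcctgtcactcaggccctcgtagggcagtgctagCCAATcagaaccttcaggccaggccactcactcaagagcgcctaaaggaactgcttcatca
Zfp963: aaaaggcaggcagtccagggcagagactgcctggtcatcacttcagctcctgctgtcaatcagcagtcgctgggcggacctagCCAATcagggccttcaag
Zfp866: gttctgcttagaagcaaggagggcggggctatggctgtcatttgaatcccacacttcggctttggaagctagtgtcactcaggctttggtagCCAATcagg

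The next 4 lines are among the strongest regions of other clusters, chosen because the promoter table covers their summits. They are at chr7:6172311-6172411, chr7:43579472-43579572, chr17:17121286-17121386 and chr16:3847145-3847245, all on the plus strand with the summit as the middle base. Of these 4 stretches, 3 hold TAAT and 1 holds CCAAT.
Zfp444: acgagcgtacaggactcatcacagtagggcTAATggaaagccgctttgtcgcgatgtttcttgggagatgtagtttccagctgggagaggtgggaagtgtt
Zfp719: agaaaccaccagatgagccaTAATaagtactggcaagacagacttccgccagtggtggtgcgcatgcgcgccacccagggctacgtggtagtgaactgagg
Zfp97: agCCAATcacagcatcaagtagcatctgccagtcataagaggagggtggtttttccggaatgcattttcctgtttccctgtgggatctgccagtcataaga
Zfp174: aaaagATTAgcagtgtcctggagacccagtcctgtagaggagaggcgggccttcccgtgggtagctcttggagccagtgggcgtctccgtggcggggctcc

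The last 4 lines are genes of chromosome 4, where no clustered Zfp gene had a region, chosen as the 4 promoters there with the largest share of sequence that recurs in the promoter table. They are centred 46 bases before the start listed in the table, the median place of a summit in the clusters. They lie at chr4:146156731-146156831 (plus), chr4:147702627-147702727 (minus), chr4:146097216-146097316 (plus) and chr4:147642504-147642604 (minus).
Zfp600: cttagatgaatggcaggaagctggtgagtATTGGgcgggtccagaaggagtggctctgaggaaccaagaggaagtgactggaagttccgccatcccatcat
Zfp534: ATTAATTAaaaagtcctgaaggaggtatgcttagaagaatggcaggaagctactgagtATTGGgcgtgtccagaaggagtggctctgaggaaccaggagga
Zfp987: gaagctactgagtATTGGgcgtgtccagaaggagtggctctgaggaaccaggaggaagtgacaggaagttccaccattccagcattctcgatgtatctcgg
Zfp979: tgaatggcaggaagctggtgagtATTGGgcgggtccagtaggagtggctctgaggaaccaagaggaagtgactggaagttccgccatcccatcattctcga

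Of the 226 clustered Zfp genes, 102 (45.1%, interval 38.5 to 51.9%) carried an Otp region at an end, against 27.2% of all protein-coding genes. A region counted when its summit lay within 1 kb of either end of the gene. Genes of the same lengths had one in 31.9% of cases, a share averaged over 10 classes of gene length with the weights of the clustered genes. Solitary Zfp genes had one in 64 of 168 cases (38.1%, 30.7 to 45.9%), and their lengths gave 31.2%. The interval of the clustered genes lay above the value from length, while the interval of the solitary genes reached it. Counted at the starts listed in the promoter table instead, both intervals lay above the values from length. They were 42.0 to 56.5% against 33.7% for clustered genes and 34.8 to 52.1% against 33.1% for solitary ones. The intervals of clustered and solitary genes overlapped, so their difference was within counting error. Other protein-coding genes inside the cluster spans had a region in 11 of 39 cases (28.2%, 15 to 45%), near the 26.3% from their lengths. No clustered Zfp gene had an IgG region at an end (0 of 226, up to 1.62%), as compared with 0.379% of all protein-coding genes. No IgG summit fell anywhere in the cluster spans, which held 148 Otp summits. The spans sum to 8879 kb and the IgG list held only 291 regions in the whole genome, so this absence says little. The upper bound for the clustered genes lies above the share of all genes, so a difference in IgG was not detectable.

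For clustered Zfp genes, the difference from genes of the same length was not seen at a −log10 q of at least 10. With a −log10 q of at least 5, 90 clustered Zfp genes kept a region (39.8%, interval 33.4 to 46.5%), against 27.5% from length and 23.3% of all protein-coding genes. With a −log10 q of at least 10, 42 clustered genes did (18.6%, 13.7 to 24.3%), an interval that holds the 15.8% from length but not the 13.4% of all protein-coding genes. At that threshold 39 of 168 solitary Zfp genes had one (23.2%, 17.1 to 30.3%), an interval above the 15.4% from length. The intervals of clustered and solitary genes again overlapped. With at least 20, 9 clustered Zfp genes remained (3.98%, 1.84 to 7.42%), against 13 solitary Zfp genes (7.74%, 4.18 to 12.9%), 5.63% from length and 4.86% of all genes. The intervals at this last threshold hold the values from length.

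**Figure D1:**
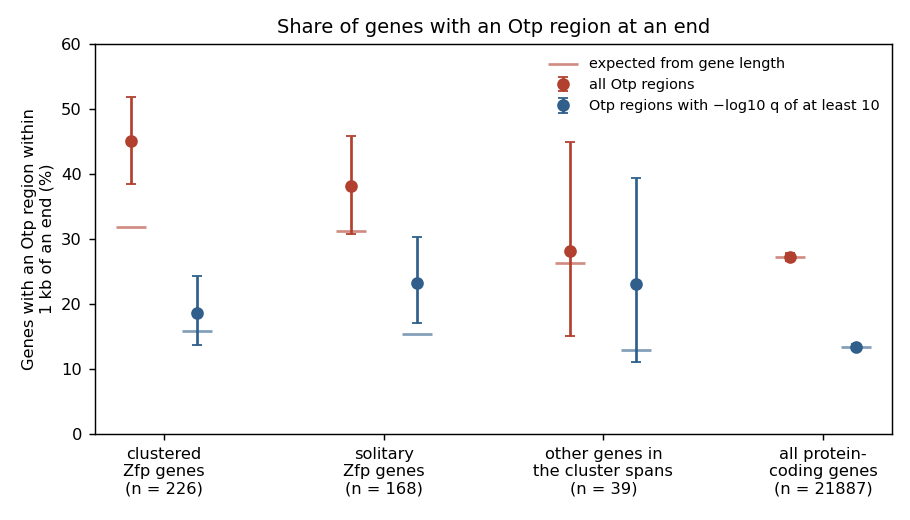
Share of genes (%) with an Otp region within 1 kb of an end in 4 gene sets, for all Otp regions (red) and for those with a −log10 q of at least 10 (blue). Dots are shares with 95% exact binomial intervals and short lines are the shares expected from gene length. Clustered Zfp genes are at 45.1% and 18.6%, solitary ones at 38.1% and 23.2%.

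The 102 genes had 112 Otp regions at their ends, of which 110 lay at 1 clustered Zfp gene and 2 at a pair of them. The median fold enrichment, as the authors' caller gave it, was 7.42 (4.05 to 19.3), against 8.35 at solitary Zfp genes and 7.59 at all protein-coding gene ends. The median number of tags at the summit was 14 (7 to 74), against 17 at solitary Zfp genes and 15 at all gene ends. Of the 112 regions, 39.3% had a −log10 q of at least 10, against 57.7% of the 71 regions at solitary Zfp genes and 45.7% of the 5527 at all gene ends. None of the 112 overlapped an IgG region, while 1.19% of the regions at all gene ends did. A tag count divided by 5.87, the ratio of the genome backgrounds, reached 4 at 15 of the 102 genes. Counted by region, it did at 17 of 112, against 16 of 71 at solitary Zfp genes and 1196 of 5520 at all gene ends. The weakest IgG region had 4 tags. At the other 87 of the 102 genes, a difference from IgG was not detectable at this depth.

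Zfp869 (gene ID 66869, chromosome 8, positions 69705137 to 69717068 in mm10) had the strongest region. It covered positions 69716873 to 69717214 across the outer start of the gene, with a summit of 74 tags (interval 58.1 to 92.9), at fold enrichment 19.3. By −log10 q it ranked 139 of 11379. Zfp78 on chromosome 7 followed with 60 tags (45.8 to 77.2), a fold enrichment of 13.1, in a region at positions 6362487 to 6363098 that spans the outer start. In the same cluster, Zfp444 had 44 tags (32.0 to 59.1). Zfp865 had 39 tags, Zfp566 had 34, Zfp719 had 32 and Zfp866 had 30. These 7 genes, the only clustered ones with 30 tags or more, lie in 5 clusters on chromosomes 7 and 8. Zfp174 had 29 tags and Zfp97 had 27, both in a cluster with another such gene (Zfp263 with 18 tags and Zfp960 with 20).

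Further down, 15 genes completed the 25 with the highest −log10 q, with 15 to 27 tags and fold enrichments of 7.33 to 11.8. They were Zfp563, Zfp454, Zfp961, Zfp180, Zfp619, Zfp868, Zfp882, Zfp597, Zfp871, Zfp879, Zfp810, Zfp334, Zfp28, Zfp994 and Zfp524. At the lower end of the list, Zfp607b had 8 tags and the lowest fold enrichment of the clustered genes, 4.05. Zfp946, Zfp799, Zfp286 and Zfp273 had the fewest tags, 7 each. For comparison, the 5 strongest solitary genes were Zfp317 with 66 tags, Zfp91 with 56, Zfp143, a factor of many promoters, with 46, Zfp654 with 36 and Zfp277 with 34. The region of Zfp91 also lay at an end of Lpxn, that of Zfp654 at Cggbp1 and that of Zfp277 at Dock4. The summit at Zfp277 was nearer to Dock4 (70 bp) than to Zfp277 (237 bp).

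**Figure D2:**
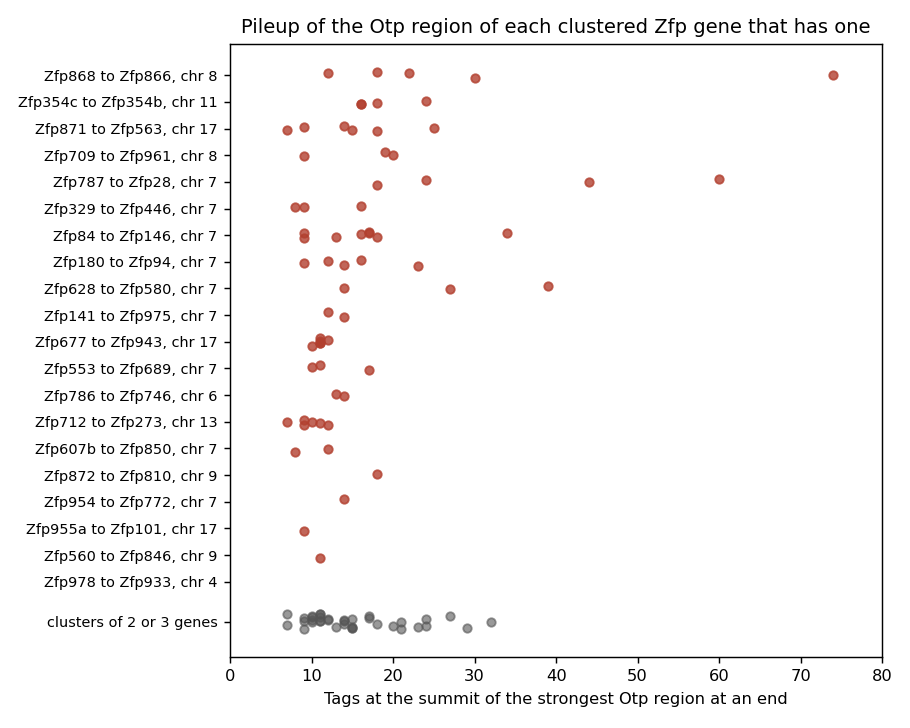
Tags at the summit of the strongest Otp region at an end, 1 dot for each clustered Zfp gene that has one, by cluster of 4 or more genes (red) and for all smaller clusters (grey). Of 102 dots, 80 lie under 20 tags, and Zfp869 (74 tags) and Zfp78 (60 tags) stand at the right.

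The regions lay at the starts of the genes. The strand is known for 195 of the 226 genes from the promoter table. Of these, 87 had a region at the outer start (44.6%, interval 37.5 to 51.9%), against 27.3% of all genes of known strand. At the far end 4 had one (2.05%, 0.562 to 5.17%), near the 1.61% of all genes. Zfp628 and Zfp771 had one at the far end but none at the outer start. For Zfp771, however, a summit of 13 tags lay 54 bp upstream of the start listed in the promoter table. Of the 87, 66 had the summit within 100 bp of the outer start, and the median position was 12 bp upstream of it. Solitary Zfp genes had a region at the outer start in 54 of 134 cases (40.3%) and at the far end in none.

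A further 14 clustered genes had a summit inside the gene but none at an end. In all, 19 of 226 had a summit inside and over 1 kb from both ends, against 10.5% of all protein-coding genes. Of these 14 genes, 12 have a listed start in the promoter table, inside the outer ends, and for 10 of them the summit was within 261 bp of one. Zfp874b had its summit 7 bp from a listed start (8 tags), Zfp672 9 bp (20 tags), Zfp976 35 bp (10 tags) and Zfp93 38 bp (15 tags). The exceptions were Zfp583, with its summit 829 bp away, and Zfp764, with its summit 13114 bp away. When starts listed inside the gene were counted too, 100 of the 195 genes had a region (51.3%, 44.0 to 58.5%), against 31.1% of all genes with a listed start.

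The clusters differed widely, as the bars by cluster show. A region at an end was found for at least 1 gene in 43 of the 52 clusters, for every gene in 8 clusters (20 genes) and for no gene in 9 clusters (27 genes). By size, the count was 22 of 44 in clusters of 2 genes (interval 34.6 to 65.4%), and the share was 46.7% in those of 3 (14 of 30, 28.3 to 65.7%). It was 53.8% in those of 4 to 6 (28 of 52, 39.5 to 67.8%), 36.7% in those of 7 to 10 (18 of 49, 23.4 to 51.7%) and 39.2% in the 3 larger ones (20 of 51, 25.8 to 53.9%). All these intervals overlap.

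**Figure D3:**
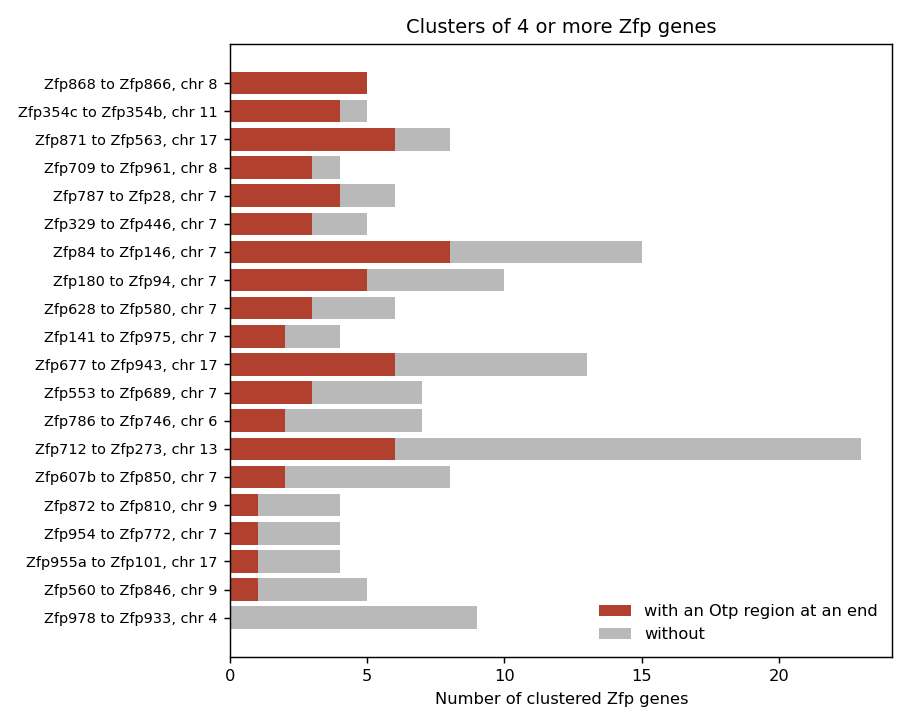
Number of Zfp genes with (red) and without (grey) an Otp region at an end in the 20 clusters of 4 or more genes, ordered by share. The cluster on chromosome 8 from Zfp868 to Zfp866 stands at the top with 5 of 5 and that on chromosome 4 from Zfp978 to Zfp933 at the bottom with 0 of 9.

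The cluster on chromosome 8 from Zfp868 to Zfp866 spans 164 kb and had a region at all 5 genes (interval 47.8 to 100%). The tags at the summits were 22 at Zfp868, 12 at Zfp964, 74 at Zfp869, 18 at Zfp963 and 30 at Zfp866. Each was at the start, with the summit 19 to 104 bp upstream of the outer start. Counted at the listed starts, all 6 genes from Zfp787 to Zfp28 on chromosome 7 had a region, against 4 of them at an end. The region of Zfp583 among them was weak (8 tags, fold enrichment 4.77), with its summit 829 bp from the listed start. The second cluster on chromosome 8 had a region at Zfp882 (19 tags), Zfp617 (9) and Zfp961 (20) but not at Zfp709. On chromosome 11, 4 of 5 genes had one, led by Zfp454 (24 tags), with Zfp354c as the exception. On chromosome 17, 6 of the 8 genes from Zfp871 to Zfp563 did, with 7 to 25 tags, and Zfp870 and Zfp763 did not. On chromosome 16, Zfp263, Zfp174 and Zfp597 all did.

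The largest clusters were mixed. The 23 genes on chromosome 13 from Zfp712 to Zfp273 had a region at an end in 6 cases (26.1%, 10.2 to 48.4%). These had 7 to 12 tags, the highest at Zfp874a. Inside the gene, Zfp458 had a stronger region of 15 tags (fold enrichment 10.6), 232 bp from its listed start, and Zfp874b had 1 of 8 tags. The 15 genes on chromosome 7 from Zfp84 to Zfp146 had one in 8 cases (53.3%, 26.6 to 78.7%), with 9 to 34 tags and Zfp566 highest. Among them Zfp568, a KRAB repressor of a placental transcript of Igf2 in mouse embryos, had 13 tags. The 13 genes on chromosome 17 from Zfp677 to Zfp943 had one in 6 cases (46.2%, 19.2 to 74.9%), in a narrow range of 10 to 12 tags. There, Zfp942 and Zfp943 start 55 bp apart on opposite strands and share 1 region of 11 tags. The 10 genes from Zfp180 to Zfp94 had one in 5 cases, led by Zfp180 with 23 tags.

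Smaller clusters gave a single gene each or a few. Zfp954 (14 tags), Zfp810 (18), Zfp81 (9) and Zfp846 (11) were the only genes with a region in their clusters of 4 or 5. The other cluster leaders were Zfp128 (16 tags), Zfp141 (14), Zfp689 (17), Zfp956 (14) and Zfp60 (12). Zfp809, which silences retroviruses in mouse embryonic cells, and Zfp445, which maintains imprints, had no region at an end, and Zfp932, a repressor of endogenous retroviruses, had 1 of 12 tags (6.20 to 20.96). These last 3 genes and Zfp568 were chosen for their known roles after their values were seen.

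On chromosome 4, none of the 14 clustered Zfp genes had a region (up to 23.2%), while 28.2% of all protein-coding genes of that chromosome did. They fall into the clusters from Zfp978 to Zfp933 (9 genes), Zfp992 to Zfp993 (3 genes) and Zfp987 to Zfp600 (2 genes). The 9-gene cluster spans 724 kb without an Otp summit of any kind. Without chromosome 4, 102 of 212 clustered genes had a region (48.1%). Some of their promoters recur, most of all the 4 printed above, which were chosen for it. Of the 11 with a listed start, 9 shared at least 1 run of 31 bases with another place in the promoter table, and in those 4 at least 50% of all runs of 31 bases recurred. In Zfp993 and Zfp933 no run recurred, and in Zfp982 1.48% and in Zfp981 7.78% did. A read from such a stretch can match several places, and how such reads were handled is not given in the sources used here. The 11 promoters also held few CpG, with a median of 5 against 13 in all promoters. Of all protein-coding genes, 3.52% with 3 to 5 CpG and 15.5% with 6 to 10 had a region at the listed start. The part of recurring sequence or of CpG number in the empty clusters was not tested.

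**Figure D4:**
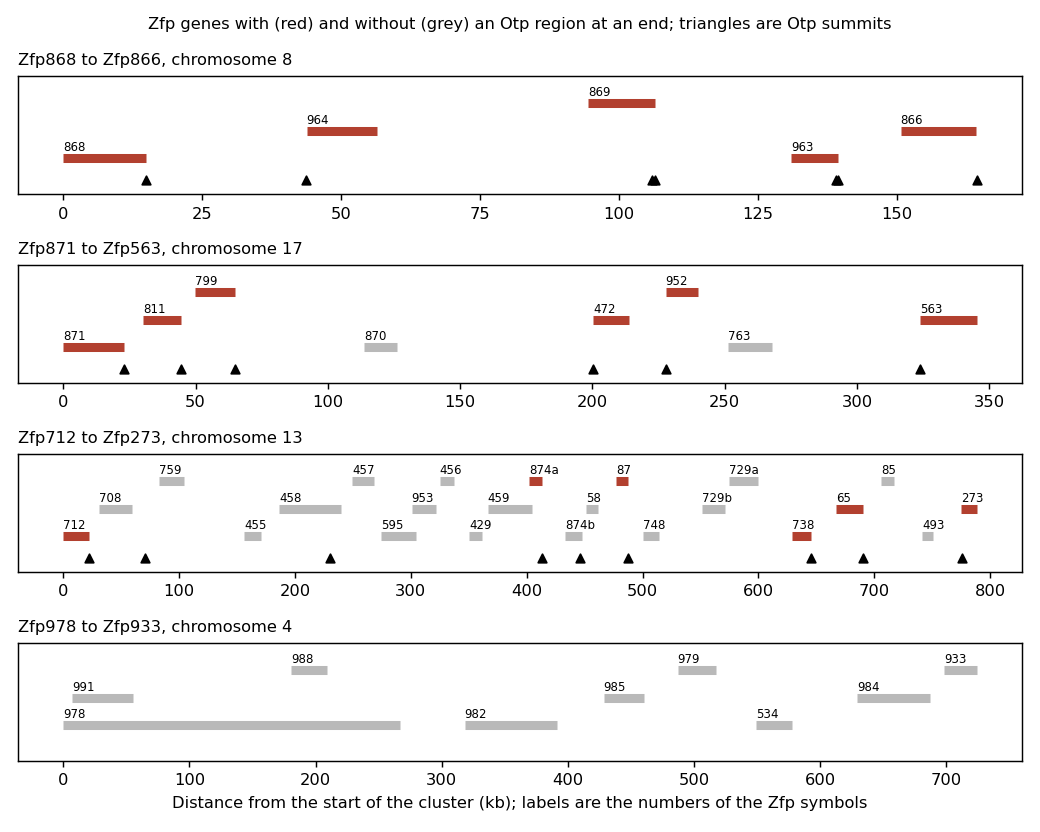
Maps of 4 clusters, with distance from the start of the cluster (kb) on the horizontal axis. Bars are Zfp genes with (red) and without (grey) an Otp region at an end, with the number of the symbol above, and triangles are all Otp summits in the span. The chromosome 8 cluster has 7 summits in its span, the chromosome 17 cluster 6, the longer chromosome 13 cluster 9 and the chromosome 4 cluster none.

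Over all clusters, promoters that recur had a lower share of regions, with overlapping intervals. Where no run of 31 bases recurred, 74 of 140 clustered genes had a region at the listed start (52.9%, interval 44.2 to 61.3%). This was 15 of 35 (42.9%, 26.3 to 60.6%) where under 50% recurred, and 7 of 20 (35.0%, 15.4 to 59.2%) where 50% or more did. All protein-coding genes gave 31.9%, 8.95% and 6.15% in the same classes. Outside chromosome 4, 7 of 16 promoters with 50% or more had a region. Zfp971 and Zfp965 on chromosome 2 differ at 9 of 300 bases, and the list has a region of 15 tags at Zfp971 and none at Zfp965. The promoters of Zfp955a and Zfp955b are identical, and neither gene had a region.

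Clustered Zfp genes had CpG-poor promoters for genes with an Otp region. A promoter in the table is 250 bases before to 50 bases after a listed start, and CpG-rich ones are known to be the usual form at broadly active genes. Regions at the listed start were found for 96 of 195 clustered genes (49.2%, 42.0 to 56.5%), against 28.6% of all genes with a listed start. The median number of CpG was 12 in the 96 and 10 in the 99 without a region. Over all protein-coding genes it was 23 with a region and 7 without. Genes with the same CpG numbers as the clustered ones had a region in 30.1% of cases, below the interval of the clustered genes. For solitary Zfp genes the shares were 43.3% (58 of 134, 34.8 to 52.1%) observed, 36.0% from CpG and 33.1% from length.

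The intervals of clustered Zfp genes lay above the shares of all genes from 3 to 15 CpG, and those of solitary ones from 3 to 10 CpG. With 0 to 2 CpG, 1 of 5 clustered and 0 of 2 solitary genes had a region, with intervals that hold the 0.656% of all genes. With 3 to 5 CpG, 8 of 25 clustered genes had a region (32.0%, 14.9 to 53.5%), against 3.52% of all protein-coding genes. With 6 to 10 it was 31 of 62 (interval 37.0 to 63.0%) against 15.5%, and with 11 to 15 it was 25 of 37 (67.6%, 50.2 to 82.0%) against 35.5%. From 16 to 20 it was 18 of 36 (interval 32.9 to 67.1%) against 49.8%, and from 21 to 25 it was 9 of 22 (40.9%, 20.7 to 63.6%) against 54.1%. The interval of the clustered genes holds the value of all genes in these last classes. Solitary Zfp genes had a region in 3 of 14 cases with 3 to 5 CpG (21.4%, 4.66 to 50.8%), 12 of 27 with 6 to 10 (44.4%, 25.5 to 64.7%) and 7 of 12 with 11 to 15 (58.3%, 27.7 to 84.8%). These intervals overlap those of the clustered genes in each class, and the last of them holds the 35.5% of all protein-coding genes.

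**Figure D5:**
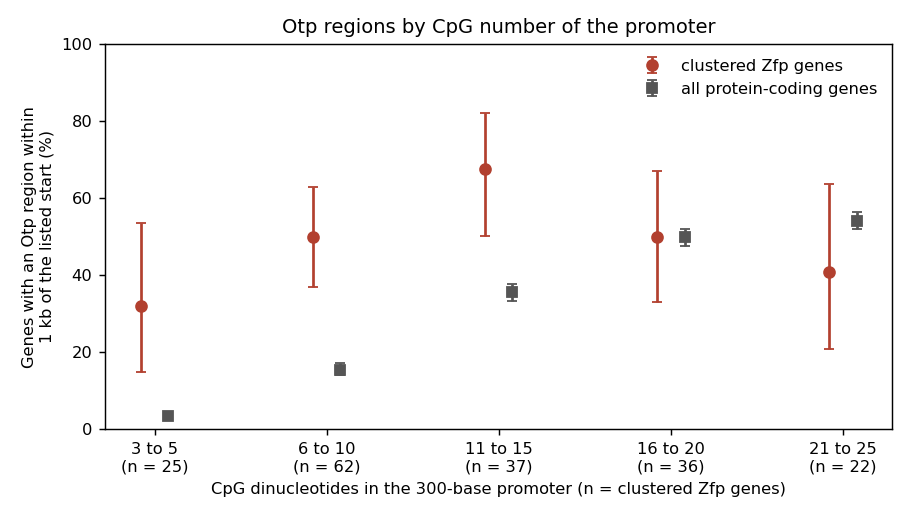
Share of genes (%) with an Otp region within 1 kb of the listed start by number of CpG in the 300-base promoter, for clustered Zfp genes (red) and all protein-coding genes (grey), with 95% exact binomial intervals. Classes with under 20 clustered genes are left out. From 3 to 15 CpG the red intervals lie above the grey dots (67.6% against 35.5% at 11 to 15), and in the next 2 classes they hold them.

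Of the short words counted under the summits, the GC box stood apart between clustered and solitary Zfp genes. Words were searched on both strands, in 101 bases centred on a summit that lay wholly in a promoter. A match describes the letters and is not a binding site. The homeodomain core TAAT was in 17 of 76 stretches at clustered Zfp genes (22.4%, interval 13.6 to 33.4%), 12.2% of 41 (4.08 to 26.2%) at solitary Zfp genes and 12.1% of 3328 at all protein-coding genes. At the same place before the listed start it was in 14 of 99 clustered genes without a region (14.1%) and 22.6% of all genes. The longer homeodomain word TAATTA, which includes TAAT, was in 0 of 76 stretches at clustered Zfp genes (up to 4.74%) and in 0.240% of those at all genes. The median share of G and C was 56.4% at clustered summits and 64.4% at all summits, and such a difference alone changes how often a word occurs.

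TAATTA was nonetheless common in clustered promoters as a whole, in 22 of 195 (11.3%) against 4.69% of all promoters. It was in 7 of 96 with a region (7.29%) and 15 of 99 without (15.2%). Of those 15, 8 belong to the 11 promoters of chromosome 4. The GC box GGGCGG, a word of CpG-rich promoters, was in 18.4% of stretches at clustered summits (10.5 to 29.0%), 51.2% at solitary Zfp summits (35.1 to 67.1%) and 49.8% at all summits. At the same place before the listed start it was in 27.3% of clustered genes without a region (18.8 to 37.1%) and 33.8% of all genes. The intervals of clustered genes with and without a region overlap, so a low share was not particular to the summits. CCAAT, the word bound by the factor NF-Y, was in 44.7% at clustered (33.3 to 56.6%), 46.3% at solitary (30.7 to 62.6%) and 36.9% at all summits. The longer CCAATCAG includes CCAAT and was chosen after the sequences were seen. It was in all 5 promoters of the chromosome 8 cluster shown above and in 0 of 11 on chromosome 4. Other clusters differed: all 4 promoters from Zfp955a to Zfp101 held it, with a region at 1. On chromosome 2, 9 of 11 promoters held it, with a region at 5 of the 11. Over all clusters, CCAATCAG was in 17 of 96 promoters with a region (17.7%, 10.7 to 26.8%) and 9 of 99 without (9.09%, 4.24 to 16.6%). Among solitary Zfp genes it was in 18 of 58 promoters with a region (interval 19.5 to 44.5%) and 6 of 76 without (7.89%). Among all promoters it was in 501 of 5011 with a region, 3.20% without and 5.15% in all. At summits it was in 14.5% of stretches at clustered Zfp genes, 26.8% at solitary ones and 7.51% at all genes, and the intervals of clustered and solitary genes overlapped (7.45 to 24.4% and 14.2 to 42.9%). CGGAAG, the core of many ETS factor sites, was in 17.1% of clustered (9.43 to 27.5%), 19.5% of solitary and 17.6% of all summit stretches.

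Neighbouring genes were compared in 174 adjacent pairs. Both had a region in 38 pairs, 1 of the genes in 73 and neither in 63. Of the 22 divergent pairs, with starts facing each other, 5 had both, of the 22 convergent pairs 4 and of the 94 same-strand pairs 22. Among single clustered genes 45.1% had a region. The pair counts that this share alone would give were not computed, so nothing about pairing is read from these counts. A single region served both genes of a pair in 2 cases, Zfp942 with Zfp943 and Zfp78 with Zfp28. The limit of 100 kb divides genes with and without regions on both sides. Just inside it were Zfp263 and Zfp174 (96.4 kb apart, both with a region), Zfp972 and Zfp971 (97.6 kb, Zfp971 alone) and Zfp932 and Zfp605 (97.8 kb, both). Just outside were Zfp936 and Zfp715 (104 kb, Zfp715 alone), Zfp994 and Zfp944 (112 kb, Zfp994 alone) and Zfp653 and Zfp872 (117 kb, Zfp653 alone).

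Genes that act with KRAB zinc finger proteins, or in the heterochromatin they seed, carried an Otp region in 18 of 31 cases (58.1%, interval 39.1 to 75.5%), against 32.9% from length and 27.2% of all genes. Their CpG numbers were not counted. Of all protein-coding genes with 21 to 25 CpG, 54.1% had a region at the listed start, a value inside this interval. The part of CpG number in the share of the 31 genes was not tested. Trim28 and Setdb1 themselves had none. The highest by −log10 q were Mphosph8, a reader of repressive histone methylation (fold enrichment 12.7, 25 tags), and the histone chaperone Daxx (10.8, 30 tags). Morc3 (10.7, 25 tags), the histone methyltransferase Suv39h1 (11.7, 20 tags), the heterochromatin protein gene Cbx5 (7.96, 29 tags) and the corepressor Rcor1 (9.77, 22 tags) came next. Mphosph8 also had an IgG region at an end, the only one of the 31 with one.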

How the data were processed

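The members and lists were chosen with earlier results of these data known. Each of the 2 samples has a peak list in narrowPeak layout. Trimmomatic, Bowtie2, Picard, SAMtools and MACS2 with build mm10 were used, per the submitters' processing notes. For versions, settings, the handling of duplicates and the use of a control, the entry is: not given in the sources used here. The fold enrichment (a ratio) and the −log10 p and −log10 q of each region are the authors' deposited values. The deposited summit offset (another value) gave positions. The deposited display score was not used. Read depth is unknown.

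Tags at a summit were worked out as the whole number that gives both the deposited fold and −log10 p, with a tolerance of 0.001 and a miss of over 0.005 by the next number. This solved 99.2% of Otp and 92.8% of IgG regions and was tested on simulated data. The genome background was the lowest background shared by at least 3 regions. Gene positions and promoters (300 bases, strand) came from RefSeq tables of GRCm38.p6, with 195 of 226 clustered Zfp genes in the promoter table. Those tables hold no proteins, so the planned count of fingers was not made.

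With 1 library per antibody no test was possible, and counts stand beside those of all protein-coding genes. The named genes were the 25 with the highest −log10 q, the highest of each cluster of 4 or more, pairs at the 100 kb limit, the 5 highest solitary genes and up to 6 KRAB partner genes. The searches for words other than the homeodomain ones, the runs of 31 bases and the CpG classes were added after the data were seen. Python 3.11.15, numpy 2.4.6, scipy 1.17.1 and pandas 2.3.3 were used.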

Additional observations from a re-analysis of the deposited data

How the results depend on the processing

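With a −log10 q of at least 10, 42 clustered and 39 solitary Zfp genes kept a region, and 24 clusters held at least 1 such gene, against 102, 64 and 43 with the lists as deposited. Of all protein-coding genes, 13.4% had a region at that threshold and 27.2% with the lists as deposited. The other counts stayed within 1.5 times. For clustered genes these were 97 within 500 bp, 120 within 5 kb, 90 with −log10 q from 5 upward and 99 with fold enrichment from 5 upward. These are 42.9, 53.1, 39.8 and 43.8%, against 25.1, 34.4, 23.3 and 25.7% of all protein-coding genes. With each region given to its nearest gene, 101 clustered genes (44.7%) and 57 solitary ones (33.9%) had one, against 23.8% of all. The clustered count was 102 without regions that overlap an IgG region, under both overlap rules, against 26.9% and 27.2% of all protein-coding genes. With largest gaps of 50, 200 and 500 kb it was 92 of 206, 113 of 245 and 120 of 269 genes, against 27.2% of all. Other zinc finger symbols gave 111 of 248 and the outer start alone 87 of 195, against 27.2% and 27.3% of all. Chosen after the data were seen, inner starts gave 100 of 195 (against 31.1% of all genes) and the removal of chromosome 4 gave 102 of 212. The IgG count stayed at 0 under each setting tried for it. No paired analysis was possible because the antibodies have 1 library each, which also leaves none to omit. Unknown depth and the low IgG background limit every comparison at regions of few tags.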
